A study of Mus musculus with 8 samples.

Results

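The 37 genes described here mark or act in blood and lymphatic vessels. They were chosen by symbol, with earlier results of these data known. All 37 were measured among the 18193 genes of the array, through 68 probes that are annotated to a single symbol. The samples were 8 mammary tumours from female mice that carry the MMTV-PyMT transgene and are of the FVB/N-Tg(MMTV-PyVT)634Mul/J strain. Every tumour, in both groups, carried this transgene, in which the mouse mammary tumour virus promoter drives the polyoma virus middle T antigen in mammary epithelium. In 1 group of 4 the mice had vehicle, and in the other group of 4 they had SKI-606 at 100 mg/kg by gavage, which is the drug bosutinib and blocks tyrosine kinases of the Src and Abl families. For age, duration of dosing and the vehicle's composition nothing is given in the sources used here. Each sample is 1 Affymetrix mouse array, and precision is limited by the number of arrays. The samples are whole tumours, so that a difference in the number of vessel cells (more or fewer) and one in the RNA per vessel cell (more or less) cannot be told apart in any of these values. By the labels the RNA came from individual mice, without a word on which tumours were taken, and the p-values measure the spread between these samples, which may be technical in part.

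Endothelial cells line all vessels and are joined to each other by cadherin and immunoglobulin family proteins such as VE-cadherin and PECAM-1. New vessels sprout when vascular endothelial growth factor (VEGF) acts on receptor tyrosine kinases of the endothelium, while angiopoietins and their Tie receptors, with the pericytes that wrap the vessel, govern whether a vessel is stable. Activated endothelium also displays selectins and the adhesion molecules ICAM-1 and VCAM-1, which bind passing leukocytes, and a separate set of lymphatic endothelial cells depends on the transcription factor Prox1. Src family kinases act downstream of the VEGF receptors at endothelial junctions.

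Promoter sequences are shown first because many endothelial genes are known targets of ETS family transcription factors, such as the ERG protein encoded by a member gene, and because adhesion molecule genes are known targets of NF-kB. In the RefSeq promoter table (GRCm38.p6), 20 of the 37 genes matched by symbol, with 25 promoters. The other members, among them Vcam1, Aplnr, Sox18, Pecam1 and Cdh5, had no entry and were not searched. Each stretch holds the 250 bases before the annotated start, on the strand of the gene. Capitals mark the ETS letters AGGAAG and the NF-kB letters GGAANTTCC and GGGNNTTCC, searched on both strands.
Tie1 (chr4:118489850-118490099, minus strand): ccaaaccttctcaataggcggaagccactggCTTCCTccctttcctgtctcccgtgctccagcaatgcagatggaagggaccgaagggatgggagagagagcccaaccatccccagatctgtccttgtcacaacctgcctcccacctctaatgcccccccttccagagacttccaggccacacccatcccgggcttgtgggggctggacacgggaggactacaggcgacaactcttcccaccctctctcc
Flt1 (chr5:147726012-147726261, minus strand): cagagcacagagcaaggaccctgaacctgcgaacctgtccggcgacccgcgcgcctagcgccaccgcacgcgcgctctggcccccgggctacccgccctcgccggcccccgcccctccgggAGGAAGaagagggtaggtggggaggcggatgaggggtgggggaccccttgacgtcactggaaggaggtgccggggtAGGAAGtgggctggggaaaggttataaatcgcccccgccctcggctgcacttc
Eng (chr2:32646345-32646594, plus strand): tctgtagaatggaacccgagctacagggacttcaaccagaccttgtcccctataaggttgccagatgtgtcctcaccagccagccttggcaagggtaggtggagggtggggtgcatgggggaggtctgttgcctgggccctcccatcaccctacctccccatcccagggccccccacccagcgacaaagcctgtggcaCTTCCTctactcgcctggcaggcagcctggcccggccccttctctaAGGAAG
Icam1 (chr9:21015690-21015939, plus strand): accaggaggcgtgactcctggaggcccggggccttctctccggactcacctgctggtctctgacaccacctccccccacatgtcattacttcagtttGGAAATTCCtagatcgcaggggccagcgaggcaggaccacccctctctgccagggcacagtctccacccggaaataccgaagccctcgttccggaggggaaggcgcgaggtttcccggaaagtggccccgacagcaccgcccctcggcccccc
Kdr (chr5:75978456-75978705, minus strand): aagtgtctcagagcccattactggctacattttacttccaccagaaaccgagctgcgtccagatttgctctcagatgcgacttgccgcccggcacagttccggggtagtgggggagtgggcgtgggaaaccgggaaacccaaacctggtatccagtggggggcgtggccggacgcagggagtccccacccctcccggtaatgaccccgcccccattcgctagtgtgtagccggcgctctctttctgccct
Apln (chrX:48034854-48035103, minus strand): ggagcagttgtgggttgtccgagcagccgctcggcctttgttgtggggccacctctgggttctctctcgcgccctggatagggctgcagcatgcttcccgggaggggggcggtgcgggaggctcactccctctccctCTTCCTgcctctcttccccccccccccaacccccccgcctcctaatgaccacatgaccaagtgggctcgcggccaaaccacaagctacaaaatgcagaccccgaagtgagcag
Tie1, Flt1, Eng and Icam1 are shown as examples of members with higher levels in the SKI-606 samples at an unadjusted p under 0.05, and Kdr and Apln as examples of members without such a p; these 6 were picked after the values were seen. Of the 20 genes with a promoter, 7 had such a p, and 5 of them (Tie1, Flt1, Eng, Erg and Selp, not Icam1 and Pdpn) held AGGAAG in at least 1 promoter. Of the other 13 genes, 5 held it as well (Apln, Egfl7, Emcn, Robo4 and Sele). Tie1 holds 1 match to AGGAAG, Flt1 and Eng hold 2 each, Apln holds 1, and the Kdr stretch holds 0 matches to any letters searched. The single NF-kB match in these promoters, to GGAANTTCC, stood in Icam1, while Vcam1 had no promoter to search. Over the 25 member promoters, 11 (44.0%) held AGGAAG, where 29.5% of all 32851 promoters of the same length did. The letters ACAGGAA, which overlap AGGAAG and stand for a forkhead and ETS pair, were in 5 member promoters (20%) and in 7.20% of all. The SOX letters AACAAT were in 3 (12% against 9.42%) and the hypoxia letters ACGTG in 1, that of Pdpn (4% against 16.6%). GGAANTTCC was in 0.813% of all promoters, and GGGNNTTCC was in 0 member promoters and 4.98% of all. A match of letters is a description of the sequence only.

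All samples carried strong signals of mammary epithelium, with a mean log2 level of 7 epithelial markers between 11.59 and 11.94. Over all probes, SKI-606 samples 1 and 4 stood apart from the other 6 arrays along principal component 1 (34.0% of the variance), where they scored 81.1 and 72.4 and no other array above -14.9. On component 2 (17.9%), vehicle sample 3 was far from the rest at -81.0. These 3 samples also had the highest mean levels of squamous and hair keratin genes, and they are called the 3 samples that stood apart. Every fit without them compares 3 vehicle with 2 SKI-606 samples, which limits its precision.

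The vessel genes were higher as a group in the SKI-606 tumours, but no single gene passed the test. Each difference is the mean of the SKI-606 samples minus that of the vehicle samples in log2(signal + 16), ± its standard error; the added 16 shrinks the differences of dim genes. Because the members were chosen with earlier results of these data known, the counts that follow describe the list and do not test it. Of the 37 genes, 34 had a difference above 0, against 47.1% of all genes. Their median was 0.55, where the median of all genes was -0.02. At an unadjusted p under 0.05 in limma there were 15 members on the higher side (40.5%), against 6.07% of all genes, and 0 on the lower side, against 4.31%. The 4 SKI-606 values all lay above the 4 vehicle values in 3 members, Vcam1, Aplnr and Sox18 (8.11%), against 2.39% of all genes. By single probes, 61 of the 68 lay above 0 and 20 had an unadjusted p under 0.05 on the higher side (4.59% of all probes). At a Benjamini-Hochberg adjusted p under 0.05, limma called 0 members, 0.0% of all genes and 0.0% of all probes. The smallest adjusted p of a member was 0.517, that of Vcam1.

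Much of this difference lay between SKI-606 samples 1 and 4, which were high, and vehicle samples 2 and 3, which were low. The highest of the 8 values belonged to a SKI-606 sample in 32 members, against 49.4% of all genes, and the lowest to a vehicle sample in 34, against 48.9%. In 30 of 37 members the highest of the 8 values was that of SKI-606 sample 1 (19 members) or sample 4 (11 members), against 26.1% of all genes. The lowest was that of vehicle sample 3 in 17 members, against 17.4% of all genes, and of vehicle sample 2 in 11. Before normalization, the array of vehicle sample 3 had a median signal of 23, against 15 to 18 in the others. Of its signals 27.8% were below 10, against 34.1% to 41.7% in the others. What part this had in its low values was not tested. Set against each gene's own mean, the median member stood at 0.55 in SKI-606 sample 1 and 0.50 in sample 4. In SKI-606 samples 2 and 3 it stood at 0.02 and -0.12, and in vehicle samples 1 to 4 at 0.02, -0.44, -0.50 and -0.18. SKI-606 samples 1 and 4 both lay above every vehicle sample in 25 members, against 14.5% of all genes, whereas samples 2 and 3 both did so in 3 members (8.11%), near the 5.85% of all genes. Without SKI-606 samples 1 and 4, 27 of 37 members lay above 0, the median was 0.18, and 1 member, Vcam1, had an unadjusted p under 0.05, against 2.56% of all genes on the higher side. Without vehicle sample 3 as well, 28 lay above 0, the median was 0.14, and Vcam1 again was the single member. Both fits left out samples that often held the highest or lowest value, so that smaller differences follow in part from that choice. With only 2 SKI-606 samples left, a p above 0.05 does not show that a difference was absent. With vehicle sample 1, 2, 3 or 4 left out, the count of 15 became 11, 5, 7 or 13, and with SKI-606 sample 1, 2, 3 or 4 left out it became 6, 17, 20 or 5. The share of all genes so counted ran from 3.63% to 8.0% in these fits. Vehicle samples 2 and 3 were not left out together.

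**Figure D1:**
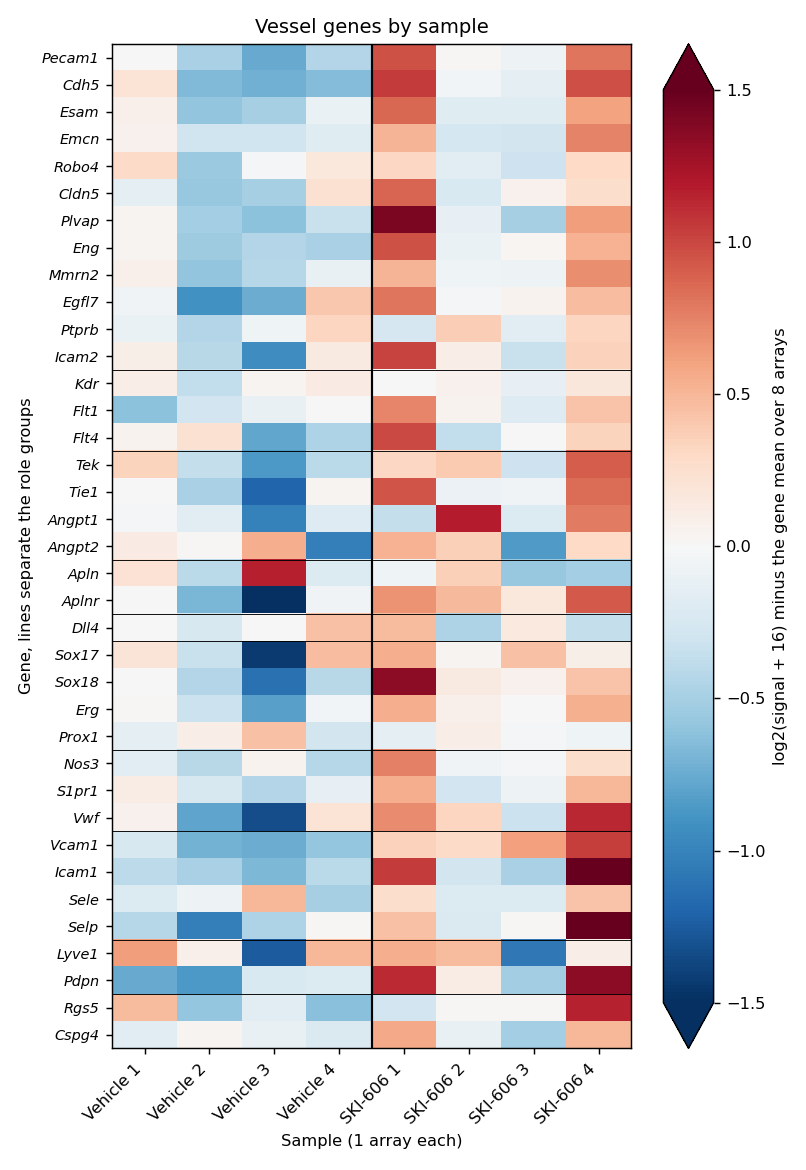
Level of the 37 vessel genes (rows, in role groups separated by lines) in each of the 8 tumours (columns), as log2(signal + 16) minus the gene's mean over the 8 arrays. The columns of SKI-606 samples 1 and 4 are mostly red, with medians of 0.55 and 0.50, and those of vehicle samples 2 and 3 mostly blue, with medians of -0.44 and -0.50.

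Junction and surface genes of the endothelium all had differences above 0, 12 of 12, with 4 of them at an unadjusted p under 0.05, and a median of 0.56. For this and the following role groups, the shares of all genes were 47.1% above 0 and 6.07% higher at such a p in limma. The role groups are small parts of the list and their counts describe it only. Pecam1, which encodes the adhesion molecule PECAM-1 of endothelial contacts, had signals of 105, 71.0, 55.9 and 73.2 in vehicle samples 1 to 4 and of 219, 107, 99.0 and 195 in SKI-606 samples 1 to 4. SKI-606 samples 1, 2 and 4 lay above every vehicle sample, sample 3 below vehicle sample 1, and the difference was 0.84 ± 0.27 (unadjusted p = 0.0110 in limma, adjusted p = 0.559). Cdh5, the gene of VE-cadherin, had signals of 154, 76.6, 73.2 and 77.4 in vehicle and 288, 127, 117 and 272 in SKI-606 samples. Vehicle sample 1 lay above SKI-606 samples 2 and 3, so the groups overlapped, with a difference of 0.92 ± 0.33 (unadjusted p = 0.0198 in limma). The second, dimmer probe of Cdh5 stood at -0.065 ± 0.29. Eng, which encodes endoglin, a co-receptor for TGF-beta family ligands, had signals of 263, 172, 185 and 178 in vehicle and 511, 239, 262 and 374 in SKI-606 samples, a difference of 0.71 ± 0.24 (unadjusted p = 0.0170). Vehicle sample 1 again lay above SKI-606 samples 2 and 3, and the second probe stood at 0.61 ± 0.31. Mmrn2, a gene of an endothelial matrix protein, had signals of 121, 70, 80.9 and 104 in vehicle and 169.9, 108, 107 and 195 in SKI-606 samples. Its difference was 0.53 ± 0.23 (unadjusted p = 0.0435), with SKI-606 samples 1 and 4 above every vehicle sample and the other 3 probes at 0.74, 0.54 and 0.02. Without the 3 samples that stood apart, Pecam1 stood at 0.28, Cdh5 at 0.28, Eng at 0.295 and Mmrn2 at 0.138, with unadjusted p-values in limma from 0.228 to 0.580.

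The other 8 genes of this group had higher means in SKI-606 samples with wider overlap. Plvap, which encodes a protein of the diaphragms of fenestrated endothelium, stood at 0.71 ± 0.37, with a signal of 498 in SKI-606 sample 1 against at most 283 in any other sample. Egfl7, a secreted endothelial factor gene, stood at 0.65 ± 0.31 by its brightest probe and between 0.16 and 0.30 by its other 3. Icam2, an endothelial ligand of leukocyte integrins, was at 0.56 ± 0.32, the junction gene Esam at 0.56 ± 0.27, the tight junction gene Cldn5 at 0.49 ± 0.26 and the sialomucin gene Emcn at 0.35 ± 0.25. The guidance receptor gene Robo4 and the phosphatase gene Ptprb, whose product acts on VE-cadherin and Tie2, were near 0. Robo4 stood at 0.07 ± 0.22, with a 95% interval from -0.43 to 0.57, and Ptprb at 0.14 ± 0.21, with an interval from -0.33 to 0.61. Without the 3 samples that stood apart, Emcn, Icam2, Plvap and Robo4 stood at -0.135, -0.048, -0.042 and -0.195.

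**Figure D2:**
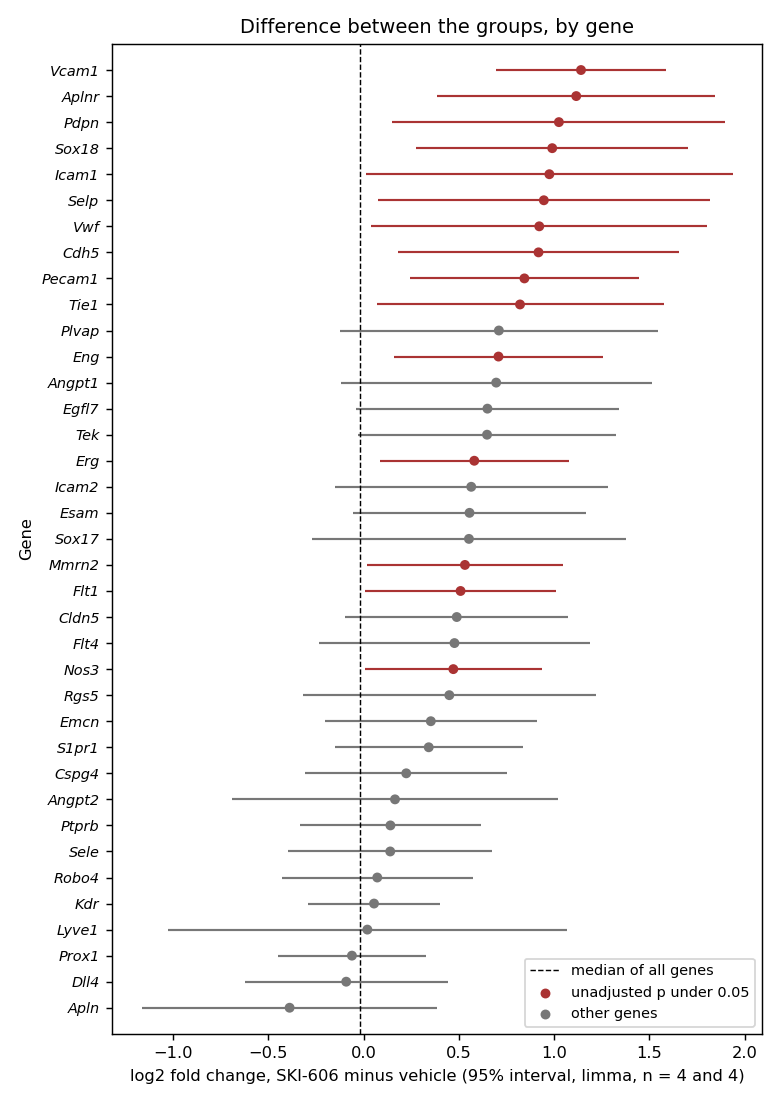
Difference between the groups for each of the 37 genes, as log2 fold change of SKI-606 minus vehicle with its 95% interval from limma (4 samples in each group), ordered by size. Red marks the 15 genes at an unadjusted p under 0.05, and the dashed line is the median of all 18193 genes, -0.02. Points run from -0.39 for Apln to 1.14 for Vcam1.

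Among the VEGF receptors, Kdr, the gene of the main signalling receptor VEGFR-2, showed no difference at this precision, and Flt1 was the member at an unadjusted p under 0.05. Kdr had signals of 50.6, 32.0, 47.9 and 51.6 in vehicle and 45.9, 48.9, 41.1 and 54.1 in SKI-606 samples. The SKI-606 values lay mostly inside the vehicle range, and the difference was 0.055 ± 0.15, with a 95% interval from -0.29 to 0.40. Flt1, the gene of VEGFR-1, which also occurs as a soluble form that binds VEGF, had signals of 9.12, 15.5, 19.6 and 22.2 in vehicle and 47.9, 24.0, 17.5 and 35.6 in SKI-606 samples. This dim probe gave 0.51 ± 0.22 (unadjusted p = 0.0479), with SKI-606 sample 3 inside the vehicle range, and 0.232 without the 3 samples that stood apart (unadjusted p = 0.352). Its other 3 probes, dim as well, stood at 0.62 ± 0.25, 0.32 ± 0.35 and -0.17 ± 0.29. Flt4, the gene of VEGFR-3, the receptor of lymphatic and sprouting endothelium, had signals from 27.5 to 71.6 in vehicle and from 41.5 to 132 in SKI-606 samples and stood at 0.48 ± 0.32.

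In the angiopoietin and Tie group 4 of 4 genes lay above 0, 1 of them at an unadjusted p under 0.05, with a median of 0.67. Tie1, the gene of an orphan receptor that pairs with Tie2, had signals of 50.6, 32.0, 13.4 and 52.8 in vehicle and 112, 47.0, 48.8 and 104 in SKI-606 samples. Only SKI-606 samples 1 and 4 lay above every vehicle sample, and the difference was 0.82 ± 0.34 (unadjusted p = 0.0355 in limma). Without these 2 samples Tie1 stood at 0.341, and without vehicle sample 3 as well at 0.082 (unadjusted p = 0.717). Tek, the gene of Tie2, the angiopoietin receptor, had signals of 58.4, 30, 16.5 and 28.5 in vehicle and 57.1, 61.4, 31.5 and 95.1 in SKI-606 samples, 0.65 ± 0.30 (unadjusted p = 0.0582). SKI-606 samples 2 and 4 were the high values of Tek, while sample 1 lay just below vehicle sample 1. Angpt1, the gene of the vessel-stabilizing ligand of Tie2, had signals of 46.5, 40.5, 15.5 and 39.5 in vehicle and 33.4, 127, 39.1 and 93.2 in SKI-606 samples. Here too SKI-606 samples 2 and 4 were high and samples 1 and 3 inside the vehicle range, at 0.70 ± 0.36 (unadjusted p = 0.0862). Angpt2, the gene of the context-dependent antagonist of Tie2, had signals of 27.5, 24.4, 42.1 and 3.62 in vehicle and 41.1, 35, 6.12 and 33.1 in SKI-606 samples. The groups covered the same range, with a difference of 0.17 ± 0.38 and a 95% interval from -0.69 to 1.02.

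The genes of apelin and its receptor lay on opposite sides of 0. Aplnr, the gene of the apelin receptor of sprouting endothelium, had signals of 1098, 677, 379 and 1053 in vehicle and 1754, 1540, 1223 and 2089 in SKI-606 samples. All 4 SKI-606 values lay above all 4 vehicle values, with means of 802 ± 339 and 1651 ± 364 (SD, n = 4 each). The difference was 1.12 ± 0.33 (unadjusted p = 0.00689, adjusted p = 0.547 in limma). The second probe of Aplnr, with means of 80.8 and 126, likewise had groups that did not overlap, at 0.58 ± 0.22. Without the 3 samples that stood apart Aplnr was at 0.57, with an unadjusted p of 0.0755. Apln, which encodes the ligand apelin, had signals of 172, 106, 349 and 124 in vehicle and 139.5, 191, 93.1 and 98.1 in SKI-606 samples. Vehicle sample 3 was the high value of the ligand and the low value of the receptor. Apln stood at -0.39 ± 0.35 (unadjusted p = 0.289), and at 0.025 without the 3 samples.

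**Figure D3:**
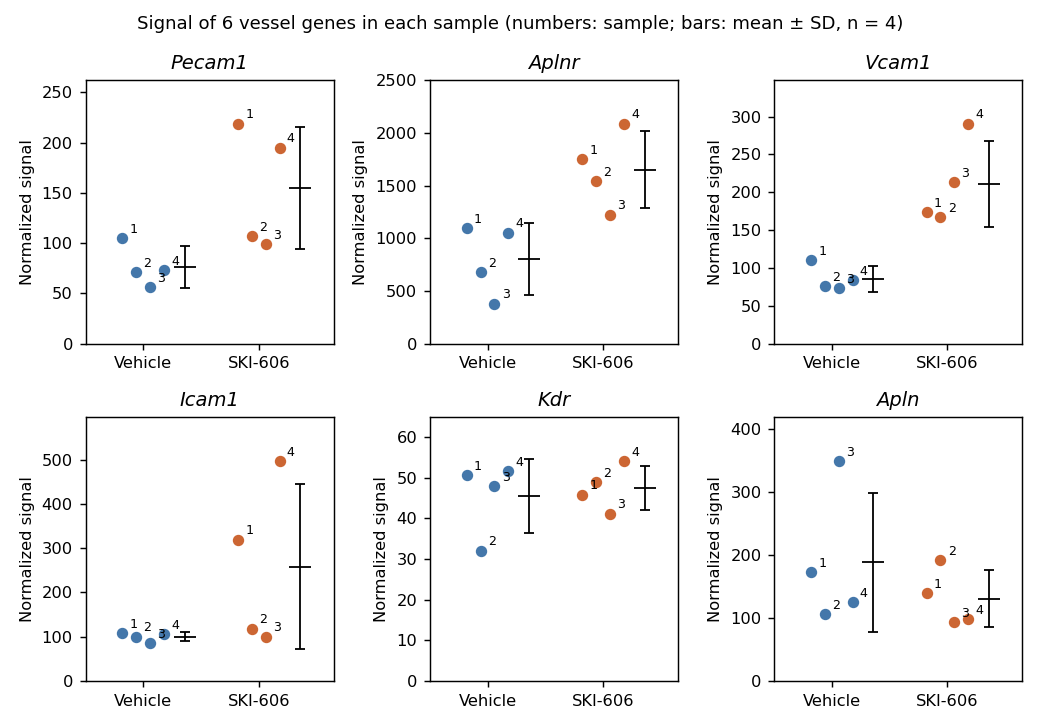
Normalized signal of 6 vessel genes in each tumour (points, numbered by sample, blue for vehicle and orange for SKI-606), with the mean ± SD of each group (n = 4) as black bars. All 4 SKI-606 values of Aplnr and Vcam1 lie above the vehicle values, those of Icam1 are high in samples 1 (319) and 4 (497), and those of Kdr and Apln overlap the vehicle values.

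The transcription factor genes Sox18 and Erg had higher means in the SKI-606 samples, at an unadjusted p under 0.05 in limma. Neither kept such a p without the 3 samples that stood apart, where 3 vehicle and 2 SKI-606 samples were left. Sox18, a regulator of vessel and lymphatic development, had signals of 152, 108, 61.2 and 110.5 in vehicle and 412, 168, 160.4 and 211 in SKI-606 samples. The groups did not overlap, although SKI-606 samples 2 and 3 lay close to vehicle sample 1, and the difference was 0.99 ± 0.32 (unadjusted p = 0.0117, adjusted p = 0.559 in limma). Erg, an ETS factor that maintains endothelial identity, had signals of 30.4, 20.5, 10.1 and 28.5 in vehicle and 50.9, 32.4, 29.8 and 50.5 in SKI-606 samples, a difference of 0.58 ± 0.22 (unadjusted p = 0.0261). Only SKI-606 sample 3 fell inside the vehicle range, and a second probe near zero signal stood at 0.07. Without the 3 samples that stood apart, Sox18 stood at 0.386 (unadjusted p = 0.101) and Erg at 0.156 (unadjusted p = 0.427). Sox17, a factor of arterial endothelium, stood at 0.55 ± 0.37, with a vehicle range from 4.88 to 62.1 that covered 3 of the 4 SKI-606 values. Dll4, the Notch ligand of tip cells, had signals of 32.4, 25.2, 32.4 and 50.4 in vehicle and 52.0, 19.5, 38.1 and 22.1 in SKI-606 samples. It stood at -0.09 ± 0.24, with an interval from -0.62 to 0.44, and at 0.018 on the deposited ratios and 0.031 with array median scaling.

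Of 3 genes of vascular tone, lipid signalling and clotting, 3 lay above 0 and 2 had an unadjusted p under 0.05. Nos3, the gene of endothelial nitric oxide synthase, had signals of 48.8, 38.5, 59.2 and 38.0 in vehicle and 106, 53.6, 55.5 and 71.2 in SKI-606 samples, with SKI-606 samples 1 and 4 above the vehicle range and a difference of 0.47 ± 0.21 (unadjusted p = 0.0474). Vwf, the gene of von Willebrand factor, which tethers platelets, had signals of 58.4, 25.2, 12.4 and 66.1 in vehicle and 100.1, 73.2, 41.1 and 139.5 in SKI-606 samples. SKI-606 samples 1, 2 and 4 lay above every vehicle sample, with a difference of 0.92 ± 0.39 (unadjusted p = 0.0423). Without the 3 samples that stood apart, Vwf stood at 0.177 (unadjusted p = 0.641) and Nos3 at 0.294 (unadjusted p = 0.138). Markers of platelets and megakaryocytes, which also hold von Willebrand factor, had levels from 5.82 to 6.22 in vehicle and 5.96 to 6.16 in SKI-606 samples over 4 measured genes, 2 above 0 and 2 below. S1pr1, the receptor of sphingosine 1-phosphate that tightens the endothelial barrier, stood at 0.34 ± 0.22.

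Of the 4 leukocyte adhesion molecules, 4 lay above 0, against 47.1% of all genes, and their median was 0.96. On the higher side 3 had an unadjusted p under 0.05 in limma, against 6.07% of all genes. Vcam1, the ligand of integrin alpha 4 on leukocytes, had signals of 110.5, 75.5, 73.2 and 83.8 in vehicle and 174, 167, 213 and 291 in SKI-606 samples. All 4 SKI-606 values lay above the vehicle values, and the lowest SKI-606 value was that of sample 2. The vehicle mean was 85.8 ± 17.1 and the SKI-606 mean 211 ± 56.8 (SD, n = 4 each), and the difference was 1.14 ± 0.20, with an unadjusted p of 2.22e-04 and an adjusted p of 0.517 in limma. Vcam1 kept an unadjusted p under 0.05 in this setting and in all 20 alternatives, from 0.81 to 1.57, and stood at 0.96 without the 3 samples that stood apart (unadjusted p = 0.00401). Its other probes were dimmer and stood at 0.82 ± 0.27 and 0.45 ± 0.23, each with some overlap.

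Icam1, the ligand of the beta 2 integrins, rested on the pair of tumours that stood apart. Its signals were 108, 100.0, 85.9 and 106 in vehicle and 319, 118, 99.9 and 497 in SKI-606 samples. SKI-606 samples 1 and 4 were far above all others, sample 2 just above the vehicle range and sample 3 inside it. The difference was 0.97 ± 0.43 (unadjusted p = 0.0479 in limma) with all samples and 0.046 without the 3 samples that stood apart. Selp, the gene of P-selectin of activated endothelium and platelets, had signals of 51.6, 28.9, 50.2 and 76.4 in vehicle and 107, 62.2, 76.4 and 271 in SKI-606 samples. Its high value was SKI-606 sample 4, and its other probes stood at 0.72 and 0.73, with a difference by the brightest of 0.95 ± 0.39 (unadjusted p = 0.0363) and of 0.38 without the 3 samples. Sele, the gene of E-selectin, was dim in both groups, from 4.5 to 25 in vehicle and from 9.12 to 23 in SKI-606 samples, at 0.14 ± 0.24.

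Of the 4 lymphatic genes 3 lay above 0, 1 at an unadjusted p under 0.05. Both of the 2 mural genes lay above 0, and neither had such a p by its brightest probe. Prox1, the factor that sets lymphatic identity, had signals of 4.38, 8.12, 14.5 and 2.5 in vehicle and 4.5, 8.0, 6.12 and 5.5 in SKI-606 samples, values at the dim end of the array from which no direction can be read. Lyve1, a hyaluronan receptor of lymphatic endothelium and some macrophages, ranged from 9.12 to 76.6 in vehicle and from 12.4 to 71.1 in SKI-606 samples and stood at 0.02 ± 0.47. Pdpn, the gene of podoplanin, had signals of 155, 144, 230.1 and 235 in vehicle and 610.0, 297, 184 and 718 in SKI-606 samples. It stood at 1.02 ± 0.39 (unadjusted p = 0.0262), with SKI-606 samples 1, 2 and 4 above the vehicle range and sample 3 inside it, and at 0.40 without the 3 samples that stood apart. Podoplanin is also made by fibroblasts and by basal and squamous keratinocytes, and the keratin genes were high in the same 2 samples, and their part in the Pdpn values was not tested. Of the pericyte genes, Rgs5, a regulator of G protein signalling, had signals of 324, 147, 202 and 143 in vehicle and 184, 232, 232 and 528 in SKI-606 samples. Only SKI-606 sample 4 lay above the vehicle range, and the difference was 0.45 ± 0.34. Cspg4, the gene of the NG2 proteoglycan, stood at 0.22 ± 0.24 by its brighter probe. It stood at 1.24 ± 0.49 by its dimmer one (unadjusted p = 0.0315 in limma), so that these probes do not settle its size.

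To see which genes departed from the level of the vessels as a whole, each gene was set against the mean of 8 core genes in the same sample (Pecam1, Cdh5, Tie1, Esam, Emcn, Robo4, Eng and Cldn5, without the gene itself). A minimum signal of 50 applied to the core. Tie1, with group means of 37.2 (vehicle) and 78.1 (SKI-606), met it only through its higher group. The choice of the core thus drew in part on the treated tumours. How far this raised the difference of the core, and moved the values set against it, was not tested. The mean log2 level of the core was 6.73 in the vehicle group and 7.32 in the SKI-606 group, with sample values of 7.09, 6.50, 6.47 and 6.84 in vehicle and 7.83, 6.90, 6.91 and 7.65 in SKI-606 samples. Relative to the core, 15 of 37 genes had a higher and 22 a lower mean in SKI-606 samples, with a median of -0.04. The widest differences were those of Vcam1 (0.55), Aplnr (0.52), Pdpn (0.43) and Sox18 (0.40) on the higher side. On the lower side they were those of Apln (-0.98), Dll4 (-0.69), Robo4 (-0.60), Lyve1 (-0.58) and Kdr (-0.54). The core itself differed by 0.595, and a gene with little difference of its own takes about that value with its sign turned on this scale. Dll4, Robo4, Lyve1 and Kdr were such genes, with differences of -0.09, 0.07, 0.02 and 0.055 before the core was taken off. Prox1 (-0.66) was another, and it lay near the floor of the array, so that nothing can be read from it. Esam and Erg, at -0.04 and -0.01, kept close to the core. The groups did not overlap in 1 gene (2.70%), S1pr1 at -0.25, where all 4 SKI-606 values lay below, against 6.42% of all genes set against the core in the same way; 0 members lay wholly above, against 0.126%.

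For 6 pairs of genes, the log2 ratio within a sample was compared between the groups (exact permutation test, two-sided, 70 assignments, smallest possible p = 0.0286). The pairs were chosen after the values were seen. The log2 ratio of Aplnr to Apln was 2.03 ± 1.29 in the vehicle group and 3.53 ± 0.53 in the SKI-606 group (SD, n = 4 each), a difference of 1.5 (exact p = 0.0571, 0.214 adjusted over the 6). Vcam1 against the core differed by 0.55 (exact p = 0.143) and Kdr against the core by -0.54 (exact p = 0.114), and both had an adjusted value of 0.214. For Vcam1 against the core, SKI-606 samples 2, 3 and 4 lay above all vehicle samples and sample 1 below them all. Flt1 against Kdr differed by 0.45 (exact p = 0.143), Angpt1 against Angpt2 by 0.53 (exact p = 0.457) and Vcam1 against Icam1 by 0.17 (exact p = 0.743). None of the 6 passed the threshold of 0.05, before or after adjustment, so that no pair is shown to differ. With a smallest possible p of 0.0286, a pair could pass after adjustment only if most of the 6 stood at that p. The adjusted values could therefore hardly decide, and they do not show that the pairs were equal.

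**Figure D4:**
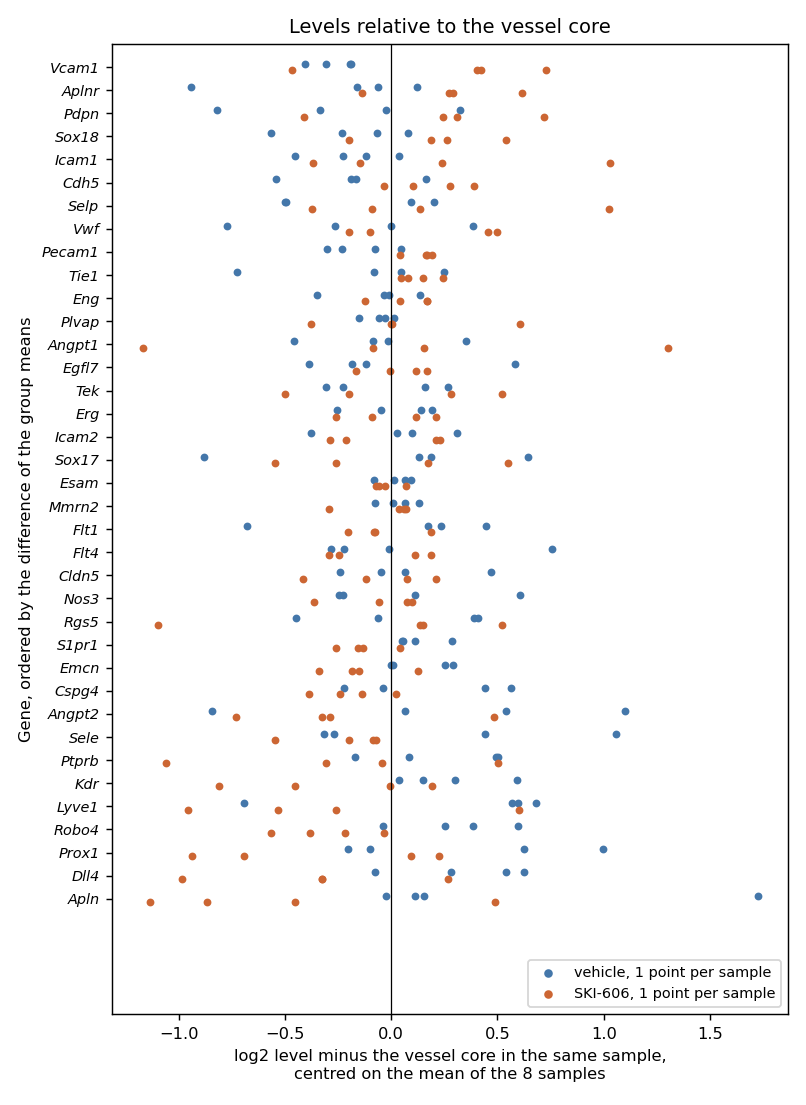
Level of each vessel gene relative to the 8 core vessel genes in the same tumour, on the log2 scale and centred on the mean of the 8 samples, with 1 point per sample (blue vehicle, orange SKI-606). Genes are ordered by the difference between the group means, from -0.98 for Apln at the bottom to 0.55 for Vcam1 at the top, and most points of the 2 groups overlap.

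Genes of the same pathways outside the 37 were counted against the same shares of all genes, 47.1% above 0 and, at an unadjusted p under 0.05, 6.07% on the higher and 4.31% on the lower side. Of 42 genes of VEGF, Notch and guidance signalling, 36 lay above 0 and 12 had an unadjusted p under 0.05 on the higher side, 0 on the lower, with a median of 0.38. Fgfr1, a fibroblast growth factor receptor gene, stood at 0.63 ± 0.13, Serpinf1, the gene of the angiogenesis inhibitor PEDF, at 1.18 ± 0.28, and the Notch target Hes1 at 0.54 ± 0.16. On the lower side the placental growth factor gene Pgf stood at -0.47 ± 0.31, Hif1a at -0.32 ± 0.29 and Hey1 at -0.64 ± 0.59. Of 35 measured further endothelial genes, 30 lay above 0 and 14 had an unadjusted p under 0.05 on the higher side, 0 on the lower, with a median of 0.56. Rasgrp3 stood at 0.69 ± 0.13, Gimap4 at 0.68 ± 0.20 and the flow-responsive factor gene Klf2 at 0.83 ± 0.28, against -0.22 ± 0.20 for Mmrn1, -0.27 ± 0.29 for Gpihbp1 and -0.10 ± 0.13 for Lmo2. Of 24 measured adhesion partners and NF-kB pathway genes, 21 lay above 0, 10 with an unadjusted p under 0.05 on the higher side and 1 on the lower. Relb, an NF-kB subunit gene, stood at 0.94 ± 0.24, the selectin ligand gene Selplg at 1.12 ± 0.30 and the cytokine gene Il1b at 1.53 ± 0.41. Itga4, the leukocyte integrin chain that binds VCAM-1, stood at -0.71 ± 0.27 from a mean signal of 21.2 in vehicle, Madcam1 at -0.24 ± 0.25 and Jam2 at -0.10 ± 0.26. In each of these lists 0 genes passed an adjusted p of 0.05 in limma.

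Markers of several other cell types were also high in the SKI-606 samples. Of all genes, 47.1% had a difference above 0. The 9 endothelial markers are all members of the vessel list, so that they repeat its values. Their mean log2 level ranged from 5.96 to 6.65 in vehicle samples. It was 7.14 and 7.19 in SKI-606 samples 1 and 4, and 6.51 and 6.37 in samples 2 and 3. For 10 fibroblast markers the range was from 8.84 to 9.49 in vehicle, with 10.02, 10.21, 9.45 and 10.55 in SKI-606 samples 1 to 4, and 10 of 10 lay above 0. For 8 macrophage markers it was from 7.84 to 8.71 in vehicle and from 8.34 to 9.52 in SKI-606 samples, with 8 of 8 above 0. The 7 measured T cell markers, of which 5 had a mean signal under 20, covered 4.44 to 4.97 in vehicle and 4.89 to 5.41 in SKI-606 samples. Of 10 mural markers, which include the members Rgs5 and Cspg4, 9 lay above 0, with 6.66 to 7.22 in vehicle and 6.93 to 7.75 in SKI-606 samples. Of the fibroblast markers, Fbln1, Col6a3 and Pdgfra stood at 1.70 ± 0.38, 0.96 ± 0.23 and 1.04 ± 0.27, and Csf1r, of smallest p among the macrophage markers, stood at 0.71 ± 0.19. No marker of any list was at 0 in every sample. What part the fibroblasts and macrophages had in the values of Vcam1, Icam1 and Pdpn, which such cells can also make, was not tested.

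Squamous and hair keratin markers set the same tumours apart. Their mean level was 9.59 and 9.46 in SKI-606 samples 1 and 4 and 9.16 in vehicle sample 3, against 4.94 to 5.83 in the other 5 samples. The vessel core was highest in the first pair, at 7.83 and 7.65. It was lowest in vehicle sample 3, at 6.47, but hardly higher in vehicle sample 2, at 6.50, where the mean keratin level was 5.16. The 5 measured proliferation markers were lowest in SKI-606 samples 1 and 4, at 7.31 and 7.35, against 8.27 to 8.92 in the others. Skeletal muscle markers were high in vehicle sample 1 (10.96) and SKI-606 samples 1 and 2 (9.17 and 10.50), and adipocyte markers in SKI-606 sample 2 (7.50) and vehicle sample 4 (7.19). Muscle and fat hold their own capillaries, and their part in the vessel values was not tested. The 3 measured red blood cell markers lay below 0, from 4.85 to 5.21 in vehicle and from 4.42 to 4.99 in SKI-606 samples, and 2 of the 3 had a mean signal under 20.

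**Figure D5:**
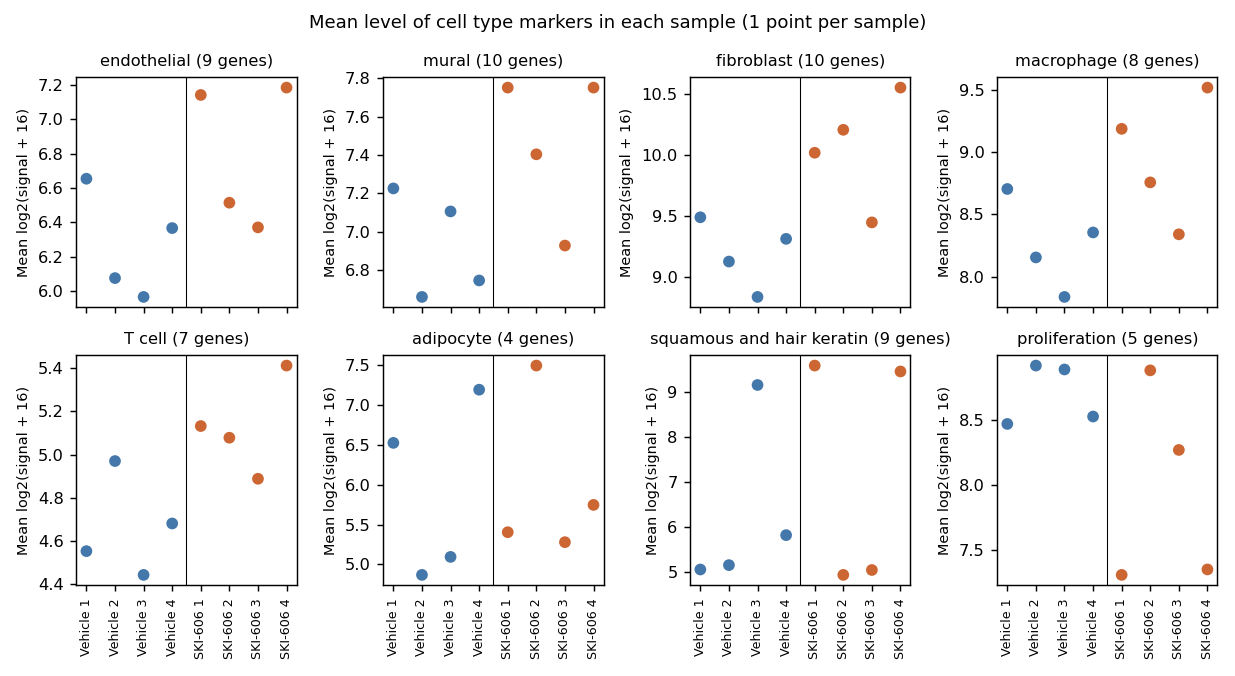
Mean log2(signal + 16) of the measured markers of 8 cell types or states in each tumour, 1 point per sample (blue vehicle, orange SKI-606; each panel has its own vertical scale, which does not start at 0). SKI-606 samples 1 and 4 are highest for endothelial markers (7.14 and 7.19) and lowest for proliferation markers (7.31 and 7.35), and vehicle sample 3 shares their high squamous and hair keratin level (9.16). The endothelial markers are all among the vessel genes described here, and the mural markers include Rgs5 and Cspg4.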

How the data were processed

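The 8 arrays were grouped by their titles in the labels, and the labels' protocols give labelling as Affymetrix recommends. The deposited values are linear ratios. Neither scanner software nor normalization is given in the sources used here, so the values themselves had to show the scale. The 8 values of a probe had a median of 1 in 26196 of 45101 probes, which fits a division of each signal by its array's median and then by its probe's median. The other 18905 probes fitted a constant divisor in place of the probe's median. The whole-number signals before these divisions were recovered (tolerance 0.002, and 0.01 for the constant divisor), with array medians from 15 to 23, and gave back 100.0% of probes within a relative 0.0001. The recovery and the fit were tested on simulated data. Signals were quantile normalized, 16 was added and log2 was taken, without a filter on low values, and no detection calls were used.

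limma 3.58.1 (R 4.3.3) was fitted on the 45037 probes that are not among the 64 controls, and p-values were adjusted over all of them (Benjamini-Hochberg). A gene was represented by its brightest probe of 1 symbol in the platform annotation, where 34945 probes had 1 symbol, 932 several and 9160 none. All members were named, of the other lists up to 3 genes of smallest p in each direction. Members and lists were chosen with earlier results of these data known. Alternatives were other scalings, pseudocounts of 4 and 64, a filter leaving out the dimmest 40% of probes, other probe choices, array weights, a replicate block and left-out samples.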

Additional observations from a re-analysis of the deposited data

Results flagged for a closer look

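In 4 of the 74 groups of 4 samples (37 genes in 2 groups), the highest or lowest sample lay far from the other 3 by Dixon's test, where chance gives about 1 in 20. Levels are log2(signal + 16). Cdh5 was at 7.41 in vehicle sample 1, above 6.48 to 6.54 in the other vehicle samples, and Eng was at 8.12 in the same sample, above 7.56 to 7.65. Kdr was at 5.58 in vehicle sample 2, below 6.0 to 6.08. Angpt2 was at 4.47 in SKI-606 sample 3, below 5.62 to 5.84.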

How the results depend on the processing

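Of 739 values of single genes over 20 alternatives, 701 kept their direction and none passed an adjusted p of 0.05 in limma, and 38 values in 14 genes changed sign. The median of the members (0.55) was 0.96 on the log2 of the deposited ratios, 0.14 without the 3 samples that stood apart and, in an alternative added after the data were seen, 0.18 without SKI-606 samples 1 and 4. The 15 members at an unadjusted p under 0.05 were 1 in both of the last settings, and 5 to 20 when 1 sample was left out. Processing moved this count as well. It was 10 with a pseudocount of 4, a pseudocount of 64 or the mean of all probes, against 4.93%, 5.82% and 5.5% of all genes. Array median scaling gave 20, against 10.7% of all genes. The remaining settings that kept all samples, apart from the replicate block, gave 13 to 16. The median of all genes was 0.10 with array median scaling and 0.16 on the deposited ratios. Sign changes were Dll4 at 0.018 on the ratios, 0.031 with array median scaling and 0.056 with the probe of largest variance, and Lyve1 at -0.13 with array weights and -0.001 with a pseudocount of 64. Without the 3 samples they were Apln at 0.025, Cspg4 at -0.193, Emcn at -0.135, Flt4 at -0.129, Icam2 at -0.048, Lyve1 at -0.705, Plvap at -0.042, Prox1 at 0.143, Robo4 at -0.195 and S1pr1 at -0.101. Without SKI-606 samples 1 and 4 they were Angpt2 at -0.163, Cspg4 at -0.194, Emcn at -0.095, Kdr at -0.002, Lyve1 at -0.292, Prox1 at 0.006, Robo4 at -0.196, S1pr1 at -0.011 and Sele at -0.134. With 1 sample left out the ranges were -0.148 to 0.475 for Angpt2, -0.266 to 0.047 for Dll4, -0.06 to 0.105 for Kdr, -0.394 to 0.381 for Lyve1, -0.165 to 0.076 for Prox1, -0.101 to 0.186 for Robo4 and -0.002 to 0.331 for Sele. The cause of these changes was not tested. With the replicate number as a block the count was 20, against 6.8% of all genes, and the median 0.55. The titles give the replicate number and no reason to pair the samples. Over all probes, the correlations of same-numbered samples within their groups were 0.02, 0.11, -0.15 and -0.11. The vessel core, however, was higher in samples 1 and 4 than in samples 2 and 3 in both groups. It stood at 7.09, 6.50, 6.47 and 6.84 in vehicle and at 7.83, 6.90, 6.91 and 7.65 in SKI-606 samples. Whether same-numbered samples belong together was not tested. Genes with signals under about 20, such as Prox1 and Sele, are limited by the array's background.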
